A study of Mus musculus with 16 samples.

Results

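The departure from additivity between loss of Axin2 and loss of 1 Runx2 allele was measured for 9918 genes in mouse calvaria, which form the vault of the skull. All 15 of the 16 arrays that are not labelled as damaged entered the comparison. The mice were males at postnatal day 7. WT mice carried both genes intact on 4 arrays, R-Het mice were Runx2+/- on 4 arrays, A-KO mice were Axin2-/- on 3 arrays, and A-KO R-Het mice were Axin2-/- and Runx2+/- on 4 arrays. The Axin2 and Runx2 alleles, the strain and any littermate relation are not given in the sources used here. The arrays lay on 2 chips, and every genotype had 2 arrays on each chip except A-KO, which had 1 on chip 1 and 2 on chip 2. Whether arrays came from separate litters is likewise not given, so the p-values measure the spread between these mice. Bone was plain in the tissue, since Col1a1, the main bone collagen chain, lay at percentile 99.8 of mean intensity among the genes tested, and Alpl, the bone alkaline phosphatase, at percentile 94.1.

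Axin2 is a scaffold of the complex that marks beta-catenin for destruction, and it is itself a target of Wnt signalling, so it works as a feedback brake on that pathway. Runx2 is the transcription factor that commits mesenchymal cells to the osteoblast fate, and loss of a single allele delays closure of the skull sutures in mice. Mice without Axin2 are known for early fusion of a skull suture. Wnt signalling also restrains cartilage formation in skeletal precursors, and osteoblast lineage cells supply signals that B cell precursors need in marrow.

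The interaction used here is (A-KO R-Het minus R-Het) minus (A-KO minus WT) on the log2 intensity scale. It is positive where A-KO R-Het lay above the level that adding both single differences to WT gives, and negative where it lay below. That sum is called the additive expectation. On the linear scale it corresponds to multiplying both single fold changes. Each interaction is given with its standard error from limma, a linear model that shares information on spread between genes, and p-values were adjusted over 9918 genes by the Benjamini-Hochberg method.

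Arrays of the same genotype were little more alike than arrays of different genotypes, with median correlations across genes of 0.983 and 0.981. Genes are not independent replicates. Array medians lay between 92.9 and 95.5 intensity units, or 6.54 to 6.58 on the log2 scale. A-KO R-Het replicate 1 scored 11.9 on the second principal component, where the other arrays without Axin2 scored from -16.1 to -5.88. R-Het replicate 4 had the largest spread about its genotype mean, with an SD of 0.295 across genes. The arrays highest in skeletal muscle genes were R-Het replicate 4, WT replicate 3 and WT replicate 1.

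No gene departed from additivity past an adjusted p of 0.05. The limma test called 0 of 9918 genes (0%), and the smallest adjusted p was 0.743. At an unadjusted p under 0.05 there were 611 genes (6.16%), of which 270 (2.72%) lay above the additive expectation and 341 (3.44%) below it. The median interaction over the 9918 genes was 0.00, and 50.8% of genes were above 0. Interactions of 5% of genes lay below -0.31 and of 5% above 0.35. The plot of interaction against p shows the lowest p-values for Vpreb1 and Tnfrsf22, the largest interaction for the cartilage gene Ucma, and large interactions with wide error for skeletal muscle genes.

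**Figure D1:**
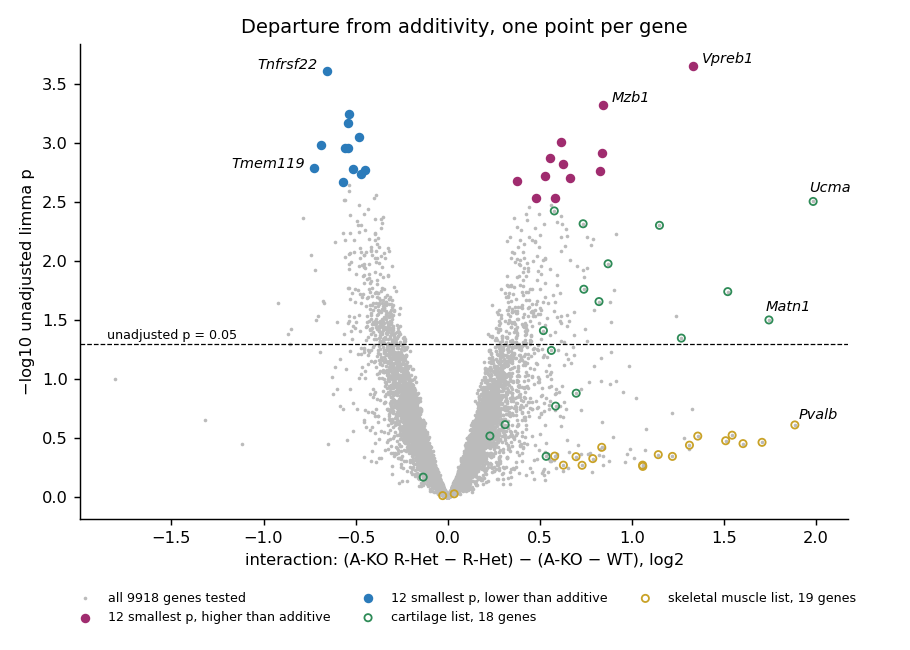
Interaction in log2 units (horizontal) against −log10 of the unadjusted limma p (vertical) for 9918 genes, with the 12 genes of smallest p in each direction filled, and the cartilage and skeletal muscle lists ringed. Vpreb1 at 1.33 and Tnfrsf22 at -0.66 have the smallest p, and muscle genes such as Pvalb reach 1.89 below the dashed line of unadjusted p = 0.05.

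The precision was enough to bound most interactions but not to see small ones. The standard error had a median of 0.159 over genes, with 5% of genes below 0.117 and 5% above 0.308. For comparison, the simple difference A-KO minus WT had a median standard error of 0.116. The 95% confidence interval lay wholly between -1 and 1 for 9457 genes (95.4%). For these genes a departure of more than 2-fold in measured intensity, in either direction, lies outside the interval. It lay between -0.5 and 0.5 for 5617 genes (56.6%). Among the 3306 genes of lowest mean intensity these shares were 96.8% and 61.2%, and among the 3306 of middle intensity 93.3% and 50.5%. Values near the array median may hold background, so in dim genes a narrow interval bounds the intensity and not the expression. At the median standard error, an interaction of 1.07 would have been needed to pass when a single gene is called. The 50 least precise genes included 15 of the skeletal muscle list. Mylpf, a fast muscle myosin light chain, had the widest error of the list, with an interaction of 1.71 ± 1.75.

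Of the genes that single comparisons called, the interval lay between -1 and 1 for 21 of 31 genes called in A-KO against WT (0.313% of those tested) and for 37 of 55 called in A-KO R-Het against A-KO (0.555%), where 95.4% of all genes did. It did for 4 of 5 called in R-Het against WT (0.0504%) and for 174 of 187 called in A-KO R-Het against WT (1.89%). These comparisons share arrays with the interaction. None of these genes was called for the interaction.

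The genes of smallest p are described here by their 4 genotype means. Among the 12 of smallest p above the additive expectation, A-KO had the lowest mean of the 4 genotypes in 9, and A-KO R-Het lay above R-Het in 9. Among the 12 of smallest p below it, A-KO had the highest mean in 11, and A-KO R-Het lay above R-Het in 1. A-KO was the genotype farthest from the mean of the other genotypes in 7 and 8 of these genes. Among all 9918 genes A-KO was farthest in 32.8%, among the 270 higher genes in 48.1%, and among the 341 lower genes in 52.2%. These genes were picked by the interaction, which subtracts A-KO, so the choice itself favours a low A-KO above the expectation and a high A-KO below it. A-KO also had the fewest arrays, and the counts are descriptions.

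The promoters of 3 of these genes are shown, with the core motifs of the RUNX factors and of TCF/LEF where they were found. Vpreb1 is shown because it had the smallest p of all genes, and its window held neither core. Cxcl12 is the secreted marrow factor among them and carries the core of the TCF/LEF motif, through which beta-catenin acts. Asic3 is the gene below the expectation that carries the RUNX core. Sequences are RefSeq promoters of assembly GRCm38.p6, 250 bases before to 50 after the gene's first listed start, read 5′ to 3′ on the gene's strand, with motif letters in capitals. They lie at chr16:16869206-16869505 on the minus strand for Vpreb1, at chr6:117168285-117168584 on the plus strand for Cxcl12, and at chr5:24413201-24413500 on the plus strand for Asic3.
Vpreb1: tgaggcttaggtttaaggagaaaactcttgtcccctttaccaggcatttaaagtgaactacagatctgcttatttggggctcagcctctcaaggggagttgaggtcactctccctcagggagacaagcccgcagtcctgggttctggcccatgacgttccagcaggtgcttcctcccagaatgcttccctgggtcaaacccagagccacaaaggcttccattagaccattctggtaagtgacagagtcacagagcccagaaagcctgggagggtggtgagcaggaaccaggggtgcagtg
Cxcl12: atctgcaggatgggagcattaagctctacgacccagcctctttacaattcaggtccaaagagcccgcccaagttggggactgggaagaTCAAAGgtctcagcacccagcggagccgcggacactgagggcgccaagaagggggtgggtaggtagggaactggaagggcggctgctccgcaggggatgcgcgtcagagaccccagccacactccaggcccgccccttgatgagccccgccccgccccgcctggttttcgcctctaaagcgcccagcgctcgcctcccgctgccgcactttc
Asic3: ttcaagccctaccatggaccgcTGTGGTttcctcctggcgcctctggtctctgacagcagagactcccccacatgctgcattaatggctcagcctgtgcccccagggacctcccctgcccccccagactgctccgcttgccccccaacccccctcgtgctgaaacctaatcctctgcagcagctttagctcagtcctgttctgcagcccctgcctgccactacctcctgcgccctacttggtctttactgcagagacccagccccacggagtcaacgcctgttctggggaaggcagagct
The RUNX core was searched as TGTGGT and the TCF/LEF core as CTTTGA, each on both strands. Neither motif contains the other. Of 8009 tested genes with such a promoter, 12.7% held the RUNX core and 12.5% the TCF/LEF core. Among the 12 higher genes 10 had a promoter, of which 0 held the RUNX core and 3 the TCF/LEF core, namely Syne4, Cxcl12 and Aldh1a7. Among the 12 lower genes 8 had a promoter, of which 1 held the RUNX core and 0 the TCF/LEF core. A match describes the letters in this window and not a bound site.

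B lineage genes led the genes above the additive expectation. Vpreb1 encodes a chain of the pre-B cell receptor that stands in for a light chain. Its log2 intensity was 8.59, 8.42, 8.20 and 8.09 in WT, 7.78, 8.12, 8.78 and 7.77 in R-Het, 6.67, 6.49 and 6.82 in A-KO, and 7.97, 7.73, 7.48 and 7.93 in A-KO R-Het. The A-KO arrays lay below every other array and close to the array medians, while the A-KO R-Het arrays overlapped those of R-Het. The additive expectation for A-KO R-Het was 6.45, below the array medians, where intensity may hold background, so no fold is given. The interaction was 1.33 ± 0.28 (95% confidence interval 0.74 to 1.93, unadjusted p = 0.000219, adjusted p = 0.743). It was 1.74 on chip 1, which holds a single A-KO array, and 0.92 on chip 2. Without R-Het replicate 3, whose Vpreb1 level of 8.78 was the highest of all arrays, the interaction was 1.56 with an adjusted p of 0.0214, and Vpreb1 was then the single gene called.

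Mzb1 encodes a chaperone for immunoglobulin assembly in B lineage cells. It read 7.69, 7.95, 8.004 and 7.67 in WT, 7.39, 7.63, 7.98 and 7.43 in R-Het, 6.39, 6.59 and 6.68 in A-KO, and 7.31, 7.07, 6.99 and 7.31 in A-KO R-Het. Its A-KO R-Het arrays lay between those of A-KO and those of R-Het with no overlap on either side. The A-KO arrays lay around the array medians and the additive expectation of 6.33 below them, so background may enter these values too. The interaction was 0.84 ± 0.19 (95% confidence interval 0.44 to 1.25, unadjusted p = 0.000471), and it was 0.46 with the damaged A-KO array kept.

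Cxcl12 encodes the chemokine that holds haematopoietic cells in their marrow niche. It read 11.75, 11.50, 11.79 and 11.61 in WT, 11.40, 11.65, 11.36 and 11.63 in R-Het, 10.69, 10.76 and 10.95 in A-KO, and 11.32, 11.10, 11.14 and 11.15 in A-KO R-Het. A-KO was again the lowest genotype, and the A-KO R-Het arrays lay between A-KO and R-Het without overlap. The interaction was 0.53 ± 0.14 (95% confidence interval 0.23 to 0.83, unadjusted p = 0.00189), with 0.61 on chip 1 and 0.50 on chip 2. Its other probes, at lower intensity, gave 0.36 and 0.39. With the damaged array kept the interaction was 1.08.

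Lbp encodes the lipopolysaccharide-binding protein of serum. Its levels were 8.78, 8.28, 8.48 and 7.92 in WT, 8.49, 8.40, 8.23 and 8.26 in R-Het, 7.82, 7.90 and 7.54 in A-KO, and 8.57, 8.70, 8.41 and 8.61 in A-KO R-Het. The A-KO arrays were lowest but reached almost to WT replicate 4, and the A-KO R-Het arrays overlapped both genotypes with Axin2. The interaction was 0.84 ± 0.21 (unadjusted p = 0.0012). It was 0.54 without the 3 arrays highest in muscle genes.

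The other 8 of these 12 genes had interactions from 0.38 to 0.83. Cntnap2, a cell adhesion gene of the neurexin family, stood at 0.83 ± 0.22 and Aldh1a7, an aldehyde dehydrogenase, at 0.67 ± 0.18. Hebp1, a haem-binding protein gene, stood at 0.63 ± 0.16. Zfp553, which encodes a zinc finger protein, stood at 0.62 ± 0.15. In Zfp553 and in Pcx, the pyruvate carboxylase gene at 0.38 ± 0.10, R-Het was lowest and A-KO R-Het highest of the genotype means. Tnfrsf21, a death receptor gene, was at 0.58 ± 0.17, Syne4, which encodes a nuclear envelope linker, at 0.56 ± 0.14, and Rab9, a small GTPase gene of late endosomes, at 0.48 ± 0.14. The second probe of Rab9 gave 0.04 ± 0.17. The additive expectation lay below the array medians of 6.54 to 6.58 for Aldh1a7 (5.90), Cntnap2 (6.08), Syne4 (6.17), Pcx (6.28) and Zfp553 (6.36). Background may therefore enter the interactions of these genes too.

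**Figure D2:**
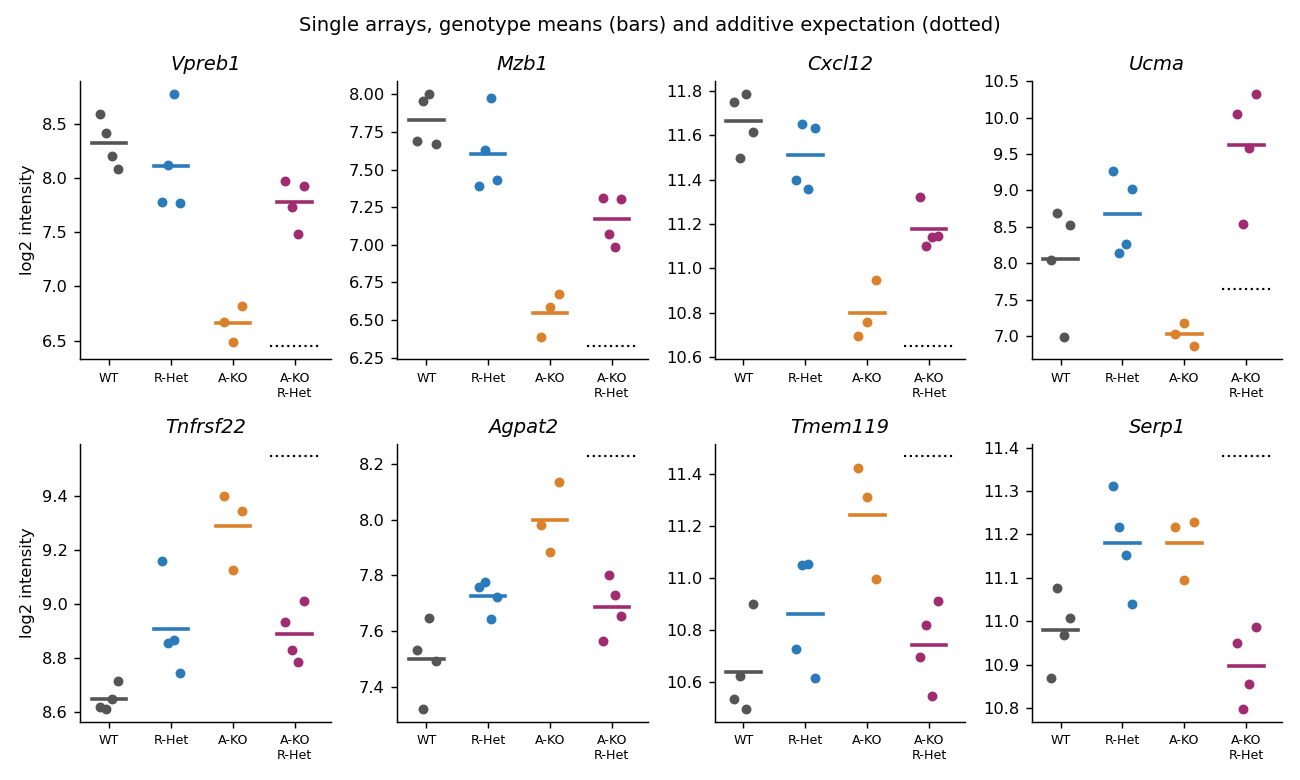
Log2 intensity of 8 genes (vertical) in single arrays of the 4 genotypes (points), with genotype means (bars) and the additive expectation for A-KO R-Het (dotted). In the upper row A-KO is lowest and A-KO R-Het lies above the dotted line, and in the lower row A-KO R-Het lies below it, by 0.66 for Tnfrsf22.

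Below the additive expectation, Tnfrsf22 had the smallest p. It encodes a mouse decoy receptor for the death ligand TRAIL. It read 8.62, 8.61, 8.65 and 8.71 in WT, 9.16, 8.85, 8.87 and 8.74 in R-Het, 9.40, 9.12 and 9.34 in A-KO, and 8.93, 8.83, 8.79 and 9.01 in A-KO R-Het. WT was lowest with no overlap, and A-KO R-Het lay at the level of R-Het, although each single genotype was above WT. The interaction was -0.66 ± 0.14 (95% confidence interval -0.95 to -0.36, unadjusted p = 0.000246, adjusted p = 0.743). A second probe of the gene gave -0.59 ± 0.16, and the interaction was -0.91 on chip 1 and -0.46 on chip 2.

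Agpat2 encodes an acyltransferase that makes phosphatidic acid. It read 7.53, 7.32, 7.65 and 7.49 in WT, 7.76, 7.78, 7.64 and 7.72 in R-Het, 7.98, 7.88 and 8.14 in A-KO, and 7.56, 7.80, 7.73 and 7.65 in A-KO R-Het. The A-KO arrays were above every other array, and A-KO R-Het overlapped R-Het. The interaction was -0.54 ± 0.13 (95% confidence interval -0.81 to -0.27, unadjusted p = 0.000671).

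Tmem119 encodes a membrane protein of osteoblasts that promotes their differentiation in mice. It read 10.53, 10.62, 10.49 and 10.90 in WT, 10.73, 11.05, 11.06 and 10.62 in R-Het, 11.42, 11.31 and 10.99 in A-KO, and 10.70, 10.82, 10.55 and 10.91 in A-KO R-Het. A-KO was highest on average, its lowest array overlapped R-Het, and A-KO R-Het lay within the range of the genotypes with Axin2. The interaction was -0.73 ± 0.19 (95% confidence interval -1.13 to -0.32, unadjusted p = 0.00163), with -0.98 on chip 1 and -0.56 on chip 2.

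Serp1 encodes a small protein that protects new membrane proteins at the endoplasmic reticulum. It read 10.87, 11.08, 10.97 and 11.01 in WT, 11.31, 11.22, 11.15 and 11.04 in R-Het, 11.22, 11.10 and 11.23 in A-KO, and 10.95, 10.80, 10.85 and 10.99 in A-KO R-Het. Each single genotype lay above WT on average, yet A-KO R-Het lay below each of them with no overlap and had the lowest mean. The interaction was -0.48 ± 0.12 (95% confidence interval -0.73 to -0.23, unadjusted p = 0.000878). It turned to 0.08 when the damaged A-KO array was kept.

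Asic3, whose promoter with the RUNX core is given above, encodes an acid-sensing ion channel. It read 6.86, 6.92, 7.22 and 6.84 in WT, 6.78, 7.10, 6.94 and 6.51 in R-Het, 7.33, 7.48 and 7.40 in A-KO, and 6.63, 6.65, 6.49 and 6.59 in A-KO R-Het. A-KO was above every other array, and A-KO R-Het lay below WT and around the array medians while overlapping the lowest R-Het array. The interaction was -0.69 ± 0.17 (unadjusted p = 0.00103), and a dimmer probe gave -0.30 ± 0.15.

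The other 7 lower genes had interactions from -0.57 to -0.45. Fkbp1a, which encodes a binding partner of TGF-beta type I receptors, stood at -0.45 ± 0.12. Carm1, an arginine methyltransferase gene, stood at -0.51 ± 0.14, and Dhx8, a spliceosomal RNA helicase gene, at -0.47 ± 0.13. Nrbp1, which encodes a pseudokinase, stood at -0.56 ± 0.14 and Dnajc17, which encodes a member of the DnaJ co-chaperone family, at -0.54 ± 0.14. Baalc stood at -0.54 ± 0.12, with a dimmer probe at -0.18 ± 0.14. The WT means of Dnajc17 (6.53) and Baalc (6.66) lay near the array medians. Vkorc1l1, a vitamin K epoxide reductase paralogue gene, stood at -0.57 ± 0.16, whereas its other probes gave -0.06 ± 0.15 and -0.17 ± 0.14.

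Axin2 itself read 7.61, 7.42, 7.77 and 7.88 in WT, 8.09, 7.91, 7.90 and 7.97 in R-Het, 7.67, 7.26 and 7.51 in A-KO, and 7.39, 7.44, 7.40 and 7.74 in A-KO R-Het. The genotypes labelled as lacking Axin2 overlapped WT, and R-Het was above the rest. Whether the probe lies inside the disrupted stretch cannot be read from these sources, and the Axin2 level was therefore not taken as a test of the genotype. The interaction was -0.28 ± 0.17, with a confidence interval from -0.64 to 0.08, and it was 0.08 on chip 2.

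Genes with the smallest p in the comparisons against WT, which share arrays with the interaction, gave intervals of different kinds. Manba, which encodes a lysosomal beta-mannosidase, read 9.89, 9.69, 9.71 and 9.72 in WT, 9.25, 9.20, 9.14 and 9.32 in R-Het, 9.70, 9.57 and 9.55 in A-KO, and 9.32, 8.996, 8.99 and 9.04 in A-KO R-Het. The genotypes with 1 Runx2 allele lay below the others without overlap. Its interaction was 0.00 ± 0.13 (95% confidence interval -0.27 to 0.27), so departures beyond that range lie outside the interval of this probe. A dimmer probe of Manba gave 0.21 ± 0.15. Cldn10, a tight junction gene, read 9.12, 8.60, 8.66 and 8.59 in WT, 7.71, 7.97, 8.04 and 7.60 in R-Het, 7.64, 8.002 and 8.14 in A-KO, and 7.60, 7.66, 7.55 and 7.85 in A-KO R-Het. Each mutant genotype lay below WT, and the 3 of them overlapped each other. The interaction of Cldn10 was 0.65 ± 0.21 (95% confidence interval 0.21 to 1.09, adjusted p = 0.743), with 1.01 on chip 1 and 0.44 on chip 2. Dimmer probes of Cldn10 gave 0.51 ± 0.17 and 0.22 ± 0.15.

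Further genes of these comparisons had intervals close to or across 0. Abca5, an ATP-binding cassette transporter gene, stood at -0.24 ± 0.12 and Hs3st3a1, a heparan sulphate sulphotransferase gene, at -0.26 ± 0.16, and each interval included 0. The WT and R-Het means of Abca5, 6.46 and 6.52, lay below the array medians, so background may enter its interaction. Aard stood at -0.48 ± 0.21, and at 0.04 on chip 2. Tmem86a, a lysoplasmalogenase gene, stood at 0.29 ± 0.11, with an interval from 0.06 to 0.52.

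**Figure D3:**
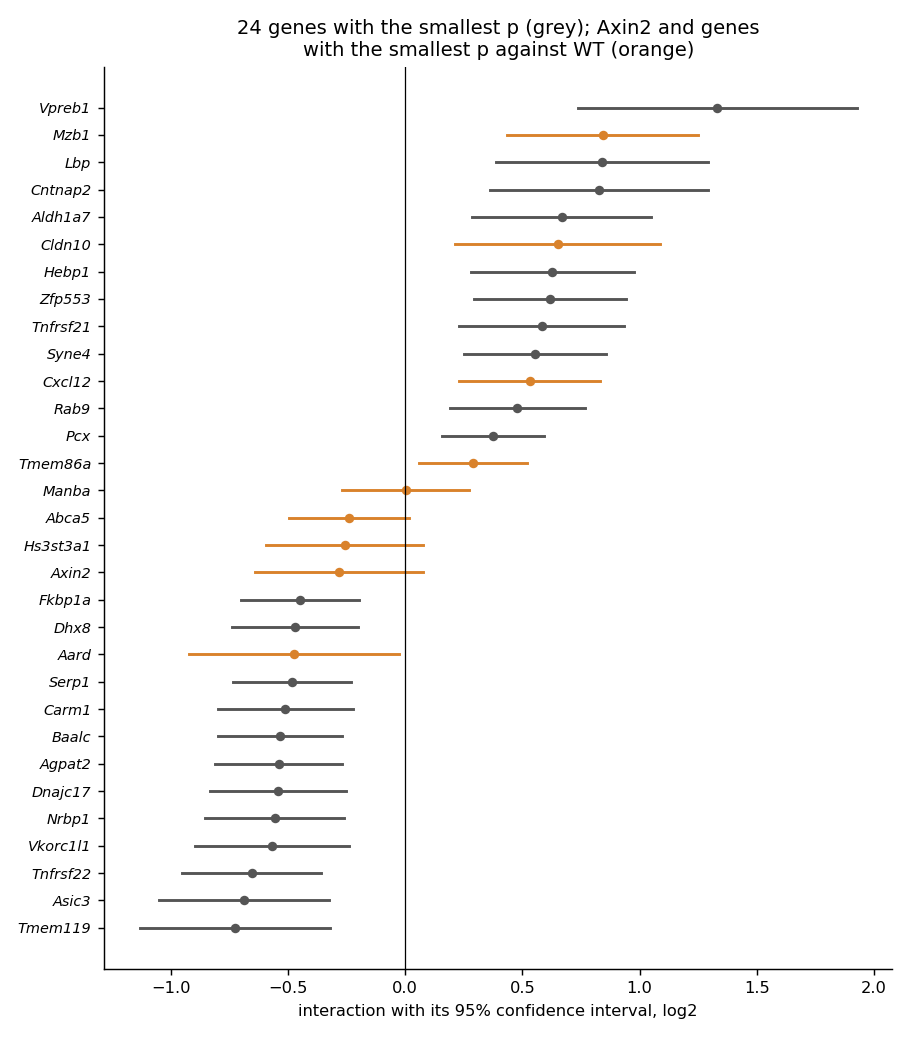
Interaction in log2 units with its 95% confidence interval for the 24 genes of smallest interaction p (grey), and for Axin2 and the genes of smallest p against WT (orange). Mzb1 and Cxcl12 belong to both sets and are drawn in orange. Manba is centred at 0.00, Axin2 includes 0, and Vpreb1 has the largest value shown, at 1.33.

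Cell groups were described by lists of marker genes, with the count of members and the median interaction set against all genes tested. Of 41 lists, 35 had at least 6 tested members. The highest medians belonged to skeletal muscle at 1.06, cartilage at 0.72, B cells at 0.54, and mast cells and eosinophils at 0.42. The lowest belonged to cholesterol and fatty acid synthesis at -0.25, cell cycle at -0.21, serine synthesis and Atf4 targets at -0.21, and osteoblast and bone matrix at -0.20. In whole tissue, fewer cells of a type and less RNA per cell cannot be told apart. Not a single member of these lists passed an adjusted p of 0.05.

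**Figure D4:**
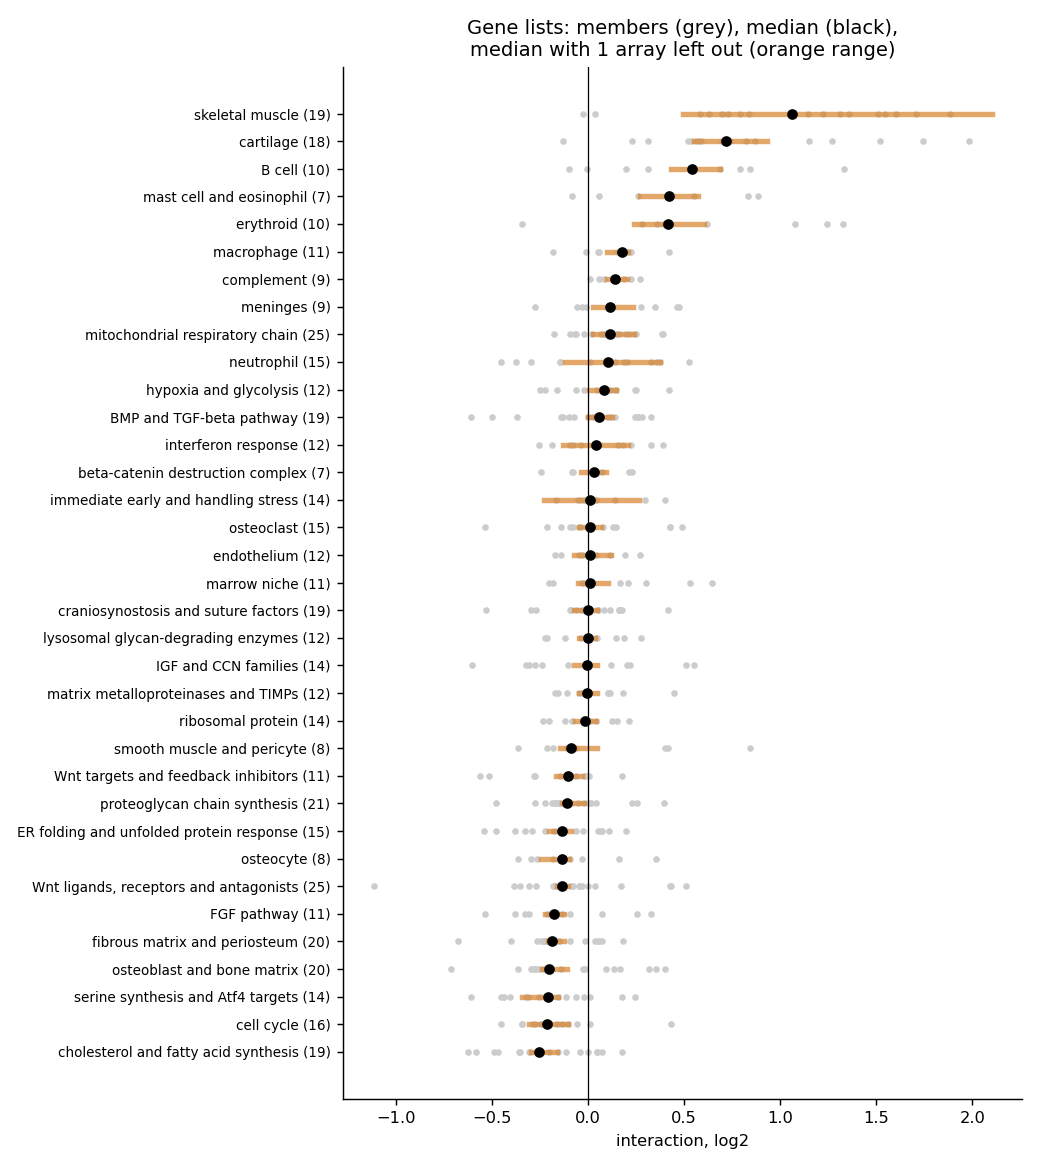
Interaction in log2 units of each tested member (grey), list median (black) and range of that median when 1 array is left out (orange) for 35 gene lists, with the number of tested members in parentheses. Cartilage and B cell medians stay above 0, at 0.72 and 0.54 with all arrays, and the skeletal muscle range is the widest.

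Cartilage genes stood above the additive expectation in 17 of 18 tested members, against 50.8% of all genes. In 11 of the 18 the unadjusted p was under 0.05 and the interaction positive, against 2.72% of all genes. The 24 genes listed included 6 that were not tested because they had no named probe or stayed at low intensity. The mean of the list, relative to its mean over 15 arrays, lay between -0.79 and -0.59 in A-KO, between -0.82 and 0.07 in WT, between 0.09 and 0.35 in R-Het, and between 0.03 and 1.05 in A-KO R-Het. A-KO overlapped WT at the low end, and A-KO R-Het overlapped R-Het at its low end. A-KO minus WT had a median of -0.24 over members and A-KO R-Het minus R-Het a median of 0.45, so the 2 differences had opposite signs. The median interaction was 0.70 on chip 1 and 0.68 on chip 2, and from 0.55 to 0.93 when an array was left out. It was 0.58 with genes of low intensity included and 0.56 with every probe on its own. A gene can pass the intensity filter through the genotypes where it is high.

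Ucma, which encodes a secreted matrix protein of cartilage, had the largest interaction of all 9918 genes. It read 8.05, 8.69, 6.98 and 8.52 in WT, 9.27, 8.15, 8.26 and 9.03 in R-Het, 7.03, 7.18 and 6.86 in A-KO, and 10.05, 8.53, 9.59 and 10.33 in A-KO R-Het. WT replicate 3 lay among the A-KO arrays, and 3 of the 4 A-KO R-Het arrays were above every R-Het array. The interaction was 1.98 ± 0.57, or 3.96-fold above the expectation (95% confidence interval 0.78 to 3.19, unadjusted p = 0.00311, adjusted p = 0.743). It was 1.92 on chip 1 and 2.05 on chip 2.

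Matn4, a matrilin of the cartilage matrix, read 12.16, 12.07, 12.21 and 12.23 in WT, 12.43, 12.75, 12.94 and 12.42 in R-Het, 11.72, 11.77 and 11.55 in A-KO, and 12.53, 12.68, 12.78 and 12.91 in A-KO R-Het. A-KO lay below WT and WT below R-Het, each without overlap, and A-KO R-Het lay within the range of R-Het. The interaction was 0.58 ± 0.17, and its other probes gave 0.13 ± 0.21 and 0.31 ± 0.25. Cytl1, which encodes a cytokine-like protein of chondrocytes, stood at 0.74 ± 0.22. The A-KO mean of Cytl1, 6.28, and its additive expectation, 6.37, lay below the array medians. Chosen after their values were seen, Matn1, a matrilin, stood at 1.74 ± 0.74, Col9a2, a collagen chain of cartilage, at 1.52 ± 0.58, and Sox9, the master transcription factor of chondrocytes, at 0.52 ± 0.23. Chad was the single member below 0, at -0.13 ± 0.31.

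**Figure D5:**
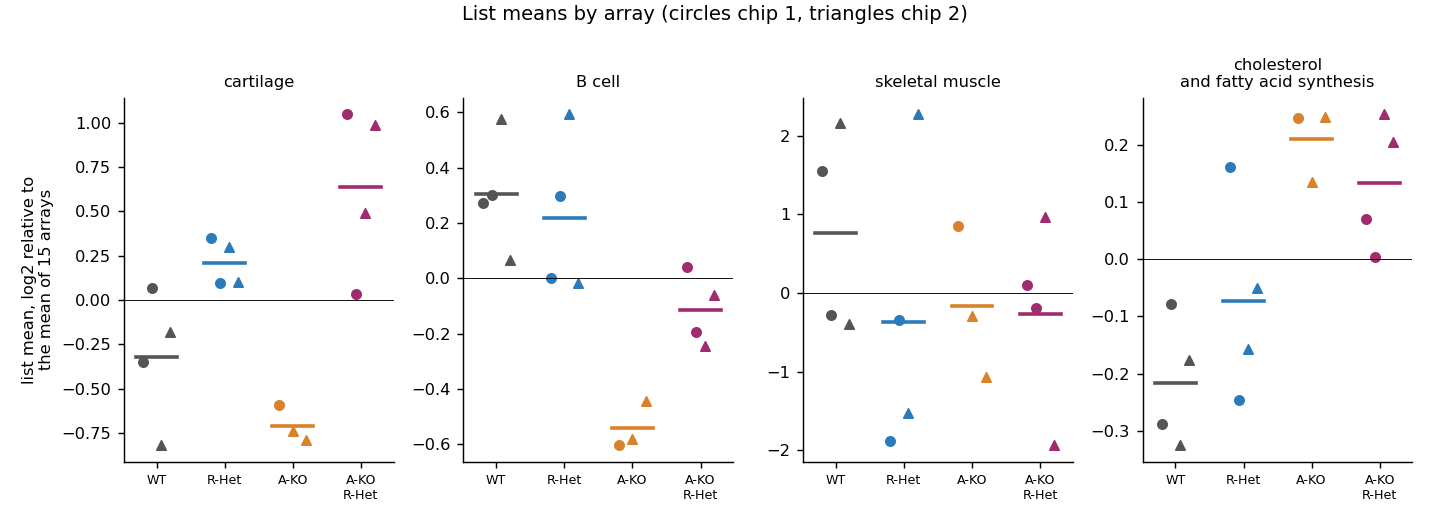
Mean log2 level of 4 gene lists relative to the mean of 15 arrays (vertical) in single arrays of the 4 genotypes, with circles for chip 1, triangles for chip 2 and bars for genotype means. A-KO arrays are lowest for B cell genes and lie from -0.79 to -0.59 for cartilage genes, whereas skeletal muscle means spread within every genotype.

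B cell genes lay above the expectation in 8 of 10 tested members, and in 6 of them the unadjusted p was under 0.05, against 2.72% of all genes. The list held 17 genes, and a gene can pass the intensity filter through the genotypes where it is high. The list mean was lowest in A-KO, from -0.60 to -0.44, and lay from -0.24 to 0.04 in A-KO R-Het, from -0.02 to 0.59 in R-Het and from 0.07 to 0.57 in WT. A-KO did not overlap any other genotype, and A-KO R-Het overlapped R-Het but not WT. Both differences were negative for the list, with a median of -0.93 for A-KO minus WT and -0.35 for A-KO R-Het minus R-Het. Pou2af1, a transcriptional coactivator of B cells, stood at 0.55 ± 0.22 beside Vpreb1 and Mzb1. Its A-KO mean was 6.23 and its additive expectation 6.12, both below the array medians, so background may enter here too. Chosen after their values were seen, Ebf1 and Rag1, which act early in B cell development, stood at -0.01 ± 0.22 and -0.10 ± 0.19. The median was 0.80 on chip 1 and 0.41 on chip 2, 0.29 with the damaged array kept and 0.25 with genes of low intensity included.

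Mast cell, erythroid and neutrophil lists had wider errors than the B cell list, with median standard errors of 0.332, 0.354 and 0.451 against 0.221. Mast cell and eosinophil genes lay above the expectation in 6 of 7 members, with 0 at an unadjusted p under 0.05. Cpa3, the mast cell carboxypeptidase, stood at 0.89 ± 0.44, Cma1, a chymase, at 0.83 ± 0.42 and Mcpt4, a mast cell protease, at 0.55 ± 0.33. Their R-Het levels were highest in replicate 4, the array that is also highest in skeletal muscle genes. Cpa3 read 9.15 there and 7.36 to 8.17 on the other R-Het arrays. Without R-Het replicate 4 the interaction of Cpa3 was 1.23, and the mast cell and eosinophil median rose from 0.42 to 0.57. Erythroid genes had a median of 0.42 with 9 of 10 members above 0 and 2 at an unadjusted p under 0.05, against 2.72% of all genes, and A-KO R-Het arrays ranged from -0.89 to 0.54 in list mean. The erythroid median was 0.24 without A-KO R-Het replicate 1, and the mast cell and eosinophil median of 0.42 was 0.27 without A-KO replicate 1 and 0.19 with the damaged array kept. Neutrophil genes had a median of 0.10 that took either sign, with -0.12 when A-KO R-Het replicate 4 was left out, -0.35 with the damaged array kept, and 0.38 when replicate 2 of A-KO R-Het was left out. Osteoclast genes had a median of 0.01 over 15 members, which ran from -0.54 to 0.49, with 8 above 0 and 7 below. Of these, 1 was higher and 1 lower at an unadjusted p under 0.05, against 2.72% and 3.44% of all genes.

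Skeletal muscle genes had the highest median and the widest errors. Of 19 members 18 were above 0, with 0 at an unadjusted p under 0.05, and the median standard error of the list was 1.40. Pvalb, the calcium buffer of fast fibres, read 11.48, 8.85, 13.08 and 8.42 in WT, 6.86, 9.37, 7.87 and 11.51 in R-Het, 9.76, 7.69 and 7.34 in A-KO, and 7.94, 9.59, 9.77 and 7.09 in A-KO R-Het. The genotypes overlapped throughout, and single arrays differed more within a genotype than genotype means did. Its interaction was 1.89 ± 1.56 (95% confidence interval -1.42 to 5.20). Mb, the myoglobin gene, stood at 1.54 ± 1.44 and Myl1, a fast myosin light chain gene, at 1.36 ± 1.28. The list median was 2.10 without R-Het replicate 4 and 0.49 without R-Het replicate 1.

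Cartilage and B cell medians, 0.72 and 0.54 with all arrays, were recomputed in other settings based on the muscle level of each array. With the mean of the muscle list as a covariate, the cartilage median was 0.80 and the B cell median 0.55. Without the 3 arrays highest in muscle genes, which are R-Het replicate 4, WT replicate 3 and WT replicate 1, they were 0.93 and 0.37. Whether muscle content shaped these medians was not tested.

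Bone-forming genes had a median of -0.20, and few of them differed from the expectation at an unadjusted p. Of 20 osteoblast and bone matrix genes 14 were below 0, against 49.2% of all genes, and 1 had an unadjusted p under 0.05, a share near the 3.44% of all genes. Smpd3, a sphingomyelinase needed for bone mineralization in mice, was that gene. It read 11.06, 10.70, 11.37 and 11.08 in WT, 11.16, 11.32, 11.40 and 10.46 in R-Het, 11.88, 11.73 and 11.52 in A-KO, and 10.58, 11.45, 10.96 and 11.13 in A-KO R-Het, an interaction of -0.71 ± 0.30. A-KO was above every other array, and the remaining genotypes overlapped. Phex, a regulator of phosphate handling in bone, stood at -0.37 ± 0.19 and Cdh11, the osteoblast cadherin, at -0.29 ± 0.17. Col1a1 and Bglap, the osteocalcin gene, stood at -0.02 ± 0.18 and -0.03 ± 0.18. The list median was close to 0 on each chip, at -0.01 on chip 1 and -0.09 on chip 2, and it was -0.11 without WT replicate 2.

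Genes of sterol and fatty acid synthesis had a median of -0.25, while the medians of both differences that make up the interaction were positive. Of 19 members 14 were below 0, against 49.2% of all genes, and 2 were lower at an unadjusted p under 0.05, against 3.44%. The list median was 0.44 for A-KO minus WT and 0.20 for A-KO R-Het minus R-Het. Srebf2, the transcription factor of sterol synthesis, read 7.77, 7.86, 7.97 and 8.03 in WT, 8.44, 7.92, 8.04 and 8.16 in R-Het, 8.36, 8.39 and 8.56 in A-KO, and 8.14, 8.20, 8.14 and 8.24 in A-KO R-Het. The arrays lacking Axin2 were all above WT, and A-KO lay above A-KO R-Het, without overlap. Its interaction was -0.49 ± 0.15 (unadjusted p = 0.00493). Lss, which makes lanosterol, stood at -0.36 ± 0.15 and Cyp51, the lanosterol demethylase gene, at -0.47 ± 0.23. The list median was -0.43 on chip 1, -0.14 on chip 2 and -0.16 without A-KO replicate 1.

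Amino acid and cell division genes each had a median of -0.21. Of 14 genes of serine synthesis and Atf4 response 11 were below 0, against 49.2% of all genes, and 3 were lower at an unadjusted p under 0.05, against 3.44%. These were Aldh1l2, a mitochondrial folate enzyme gene, at -0.61 ± 0.20, Psat1, a serine synthesis enzyme gene, at -0.45 ± 0.17, and Asns, the asparagine synthetase gene, at -0.44 ± 0.16. Dimmer probes of Asns gave -0.13 ± 0.17 and -0.28 ± 0.16, and one of Aldh1l2 gave -0.55 ± 0.15. The serine and Atf4 median was -0.34 without R-Het replicate 4. Of 16 cell cycle genes 14 were below 0 and 0 had an unadjusted p under 0.05. Their median was -0.10 without R-Het replicate 1 and -0.34 on chip 1. Plk1, a mitotic kinase gene, stood at -0.46 ± 0.22, Cdc20, a mitotic exit regulator, at -0.35 ± 0.17 and Top2a, a DNA topoisomerase gene, at -0.34 ± 0.19. Dimmer probes of Cdc20 ran from -0.20 ± 0.20 to -0.13 ± 0.13.

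Wnt and FGF genes lay below 0 more often than above it, with small medians. Wnt targets and feedback inhibitors had a median of -0.11 over 11 genes, of which 9 were below 0, against 49.2% of all genes. In this list 1 gene was lower at an unadjusted p under 0.05, against 3.44%. Axin2 itself, at -0.28 ± 0.17, is counted among the 11 genes and the 9 below 0. The median was -0.25 without the 3 arrays highest in muscle genes, -0.03 without A-KO R-Het replicate 3 and -0.01 on chip 2. The gene at that p, named after its value was seen, was Ccnd1, which encodes cyclin D1, at -0.57 ± 0.15. Wnt ligands, receptors and antagonists had a median of -0.14 over 25 genes, of which 19 were below 0, and -0.03 on chip 2. Of these, 2 were higher and 2 lower at an unadjusted p under 0.05, against 2.72% and 3.44% of all genes. FGF genes had a median of -0.18 over 11 genes, of which 8 were below 0 and 2 lower at an unadjusted p under 0.05, and -0.07 on chip 2. The destruction complex in which Axin2 acts had a median of 0.03 over 7 genes and 0 at an unadjusted p under 0.05, with Ctnnb1, the beta-catenin gene, at -0.08 ± 0.13. Craniosynostosis and suture factors had a median of 0.00 over 19 genes and BMP and TGF-beta genes one of 0.06.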

How the data were processed

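Per the labels' protocols, total RNA from calvaria was made into biotin-labelled cRNA for single-colour Illumina bead arrays. The authors deposited normalized intensity values on a linear scale. Their background correction and normalization between arrays are not given in the sources used here. Values near the array median may hold background. A further deposited table was not used, because its 32 columns of per-sample values match no sample label.

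Intensities were log2 transformed. Probes brighter than the array median on at least 3 of 15 arrays were retained, 14212 of 25697 in all. The platform annotation named 23978 probes, 23962 of them matched RefSeq (GRCm38.p6), and the brightest of 2 or more kept probes stood for each of 2505 genes. limma 3.58.1 in R 4.3.3 fitted 1 mean per genotype (lmFit, eBayes) and p-values were adjusted over 9918 genes, with a threshold of 0.05. Precision is limited by the number of arrays. Replicate numbers follow sample order within a genotype and only name arrays.

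Members and lists were chosen with earlier results of these data known. Named are the 12 genes of smallest p in each direction, Axin2, the 3 genes of smallest p in each comparison against WT, and the 3 members of smallest p in the 4 highest and 4 lowest lists. Alpl, Bglap, Chad, Col1a1, Col9a2, Ccnd1, Ctnnb1, Ebf1, Matn1, Mylpf, Rag1 and Sox9 are named outside this rule, after their values were seen. Alternatives changed filter, scaling, probe choice, chip, the damaged array, weights, muscle level and single arrays. Runx2 expression is not analysed here.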

Additional observations from a re-analysis of the deposited data

Results flagged for a closer look

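Within groups of 4 arrays, 12 of 183 had a highest or lowest array whose gap to the nearest other array was large against the range of the group, and chance flags about 1 in 20 such groups. In A-KO R-Het these were replicate 4 for Axin2 at 7.74 (others 7.39 to 7.44), replicate 2 for Baalc at 6.98 (others 6.92 to 6.93), replicate 1 for Dnajc17 at 6.50 (others 6.88 to 6.92), replicate 3 for Hs3st3a1 at 9.46 (others 9.12 to 9.18) and replicate 1 for Manba at 9.32 (others 8.99 to 9.04). In WT these were replicate 1 for Cldn10 at 9.12 (others 8.59 to 8.66), replicate 1 for Manba at 9.89 (others 9.69 to 9.72), replicate 3 for Lss at 6.59 (others 6.74 to 6.76) and replicate 4 for Plk1 at 8.35 (others 8.59 to 8.62). In R-Het these were replicate 1 for Cdh11 at 7.67 (others 7.47 to 7.49), replicate 1 for Cyp51 at 8.40 (others 7.65 to 7.77) and replicate 4 for Cytl1 at 6.69 (others 6.51 to 6.54). All values are log2 intensity. A-KO, with 3 arrays, could not be examined this way.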

How the results depend on the processing

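The interaction was recomputed under 30 other settings. The count of genes past an adjusted p of 0.05 was 0 in each of them except without R-Het replicate 3, where it was 1 (Vpreb1), so the range over arrays left out was 0 to 1. Of the 24 genes of smallest p, 1 changed sign in any setting, namely Serp1 at 0.078 with the damaged array kept. Apart from Vpreb1 the smallest adjusted p among their 717 recomputed values was 0.128. Manba turned to -0.011 with each array minus its median, -0.012 with chip as a block, -0.066 on chip 2, -0.029 with the muscle covariate, -0.015 without the 3 arrays highest in muscle genes, and ran from -0.076 to 0.049 with an array left out. On chip 2, Aard turned to 0.043 and Axin2 to 0.079. The B cell median was 0.25 with no filter on low values, 0.80 on chip 1 and 0.29 with the damaged array kept. The osteoblast median was -0.014 on chip 1 and -0.092 on chip 2, and -0.24 to -0.11 with an array left out. The cholesterol median was -0.43 on chip 1. The serine and Atf4 median was -0.32 with array weights, -0.32 without the 3 arrays highest in muscle genes, and -0.34 to -0.16 with an array left out. The median standard error was 0.261 on chip 1. Causes of these shifts were not tested. A single chip holds fewer arrays than the main setting. Of 35 list medians 17 kept their sign in every setting. Genes at an unadjusted p under 0.05 numbered 149 (chip 2) to 423 (no filter) above the expectation. Below it they numbered 124 (chip 2) to 521 (no filter). The main setting had 270 and 341. The number of genes tested differed between settings and was larger with no filter, so these counts do not share the same total. On the linear intensity scale 0 genes passed, with 258 higher and 374 lower at an unadjusted p under 0.05. List medians and the standard error were not run on that scale, whose units differ. No paired analysis was possible because the labels give no replicate numbers, and those used here only name arrays.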
